A study of Homo sapiens with 10 samples.

Results

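The data compare 2 human leukaemia cell lines, Kasumi-1 and NB4, in their untreated state. They come from a series that measured RNA by sequencing in both lines with and without an agent named JOA. Of its 10 libraries, the 5 labelled as controls were used: 3 of Kasumi-1 and 2 of NB4, each incubated with a control treatment for 48 hours. The labels do not say what that control was, and each group is a single established line, so a difference between the groups belongs to these lines as cultured.

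Kasumi-1 and NB4 are models of different acute myeloid leukaemias, each defined by a fusion gene. Kasumi-1 carries RUNX1-RUNX1T1, which joins the DNA-binding part of RUNX1, a factor needed for blood formation, to RUNX1T1, a corepressor that blood cells otherwise use little. NB4 carries PML-RARA, which joins the nuclear body protein PML to the retinoic acid receptor RARA and holds cells at the promyelocyte stage, where primary granule proteins are made in bulk. Both fusions recruit repressors and block maturation of granulocytes, and Kasumi-1 is generally placed at an earlier, progenitor-like stage.

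The tables of the lines were normalised separately, in FPKM for Kasumi-1 (fragments scaled by transcript length and library size) and in TPM for NB4 (transcripts scaled to a fixed total), so levels were not set against each other. Instead each gene was given a percentile rank within its library, from 0 for the lowest to 100 for the highest, over the 9345 gene symbols found in both tables. A gene was called higher in a line when the libraries of the lines did not overlap, the mean ranks differed by at least 20 points and the mean rank was 50 or more in at least 1 line. No test was run across the tables, and with 3 against 2 libraries the smallest exact two-sided p would be 0.1.

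Libraries of the same line were close to each other. Across the shared genes, Spearman's rho was 0.988 to 0.991 between Kasumi-1 controls, 0.99 between the NB4 controls and 0.793 to 0.799 between the lines. The median gap in rank was 1.46 to 1.82 points within a line and 9.38 to 9.55 points between lines. Of the 5477 genes past the filter on low ranks, 760 (13.9%) were called higher in Kasumi-1 and 811 (14.8%) higher in NB4, 28.7% in all. The libraries of the lines did not overlap, at any size of difference, for 89.3% of these genes. The median SD of a gene's rank was 1.23 points in Kasumi-1 and 1.11 in NB4, and the median difference was 0.68 points. The 5 calls nearest the threshold differed by 20 to 20.0143 points and the 5 genes just outside it by 19.95 to 19.99. Levels were also taken as shares of the shared genes, rescaled to the same sum. The threshold was then a difference of 1 on the log2(value + 1) scale. The split was 1607 against 1131 (29.34% and 20.65% of genes past the filter). The median difference on that scale (Kasumi-1 minus NB4) was 0.28 over all genes past the filter. These percentages are the background for every count given as log2 shares below.

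**Figure D1:**
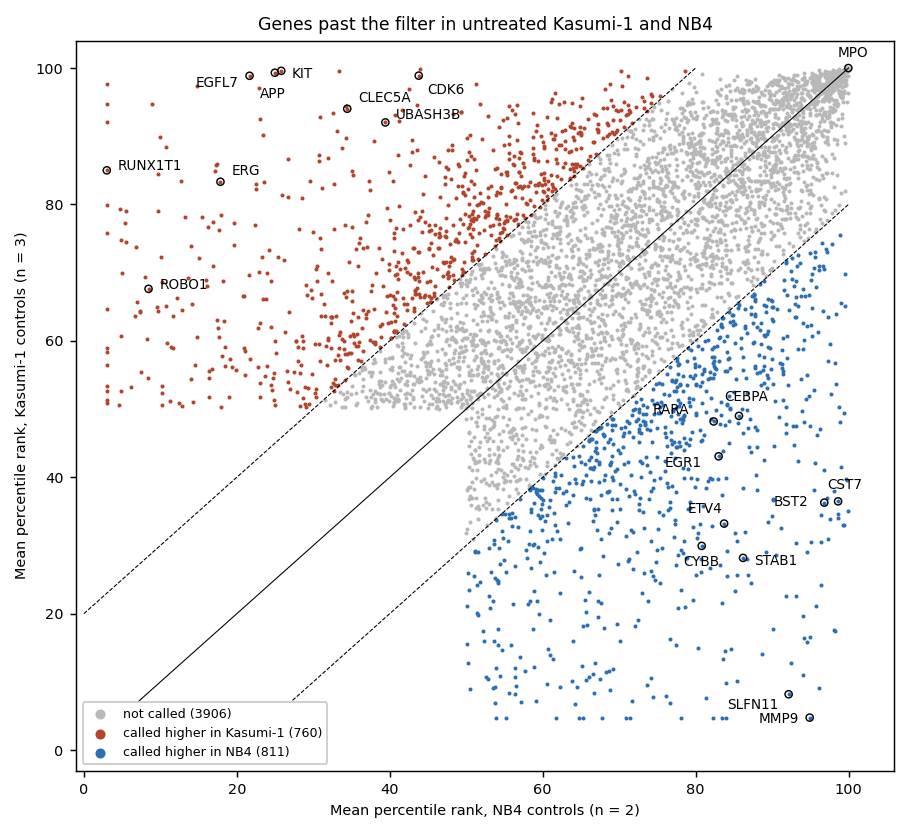
Mean percentile rank in the 2 NB4 controls (x axis) against that in the 3 Kasumi-1 controls (y axis) for the 5477 genes past the filter, with the line of equal rank and the 20-point thresholds (dashed). The 760 genes called higher in Kasumi-1 lie above the upper dashed line, with KIT, APP and EGFL7 near the top, and the 811 called higher in NB4 lie below the lower one, with MMP9 and SLFN11 at the lower right.

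A low rank in either table can belong to a row that does not carry a gene's main transcript. Genes that every cell needs were listed near 0 in one table and high in the other. In Kasumi-1 these were SDHA, a subunit of respiratory complex II (0.0943, 0.0974 and 0 FPKM, against 120 and 132 TPM in NB4), POLR2F, a subunit of the RNA polymerases, and the ribosomal protein genes RPS10 and RPL26. In NB4 it was MRPL45, a mitochondrial ribosomal protein gene with near copies, at 0 TPM in both controls against 29.8 to 31.4 FPKM. Kasumi-1 rows name single sequence records, and 11232 of its 29053 rows name no RefSeq record and could not be matched. Of the 120 genes past the filter in 6 reference lists (ribosome, proteasome, oxidative phosphorylation, glycolysis, DNA replication and mitosis), 4 were called higher in Kasumi-1 and 15 in NB4 (15.8%), with a median difference of -0.404 points. As log2 shares the same 120 gave 17 and 32, with a median of -0.25 against 0.28 over all genes past the filter. The ribosomal list went from 0 and 2 to 1 and 8, and oxidative phosphorylation from 0 and 7 to 2 and 8. Long transcripts leaned to Kasumi-1: of the 1826 genes with the longest transcripts, 365 were called higher in Kasumi-1 and 195 in NB4, against 175 and 377 of the 1826 with the shortest. The part of these features in the calls below was not tested.

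**Figure D2:**
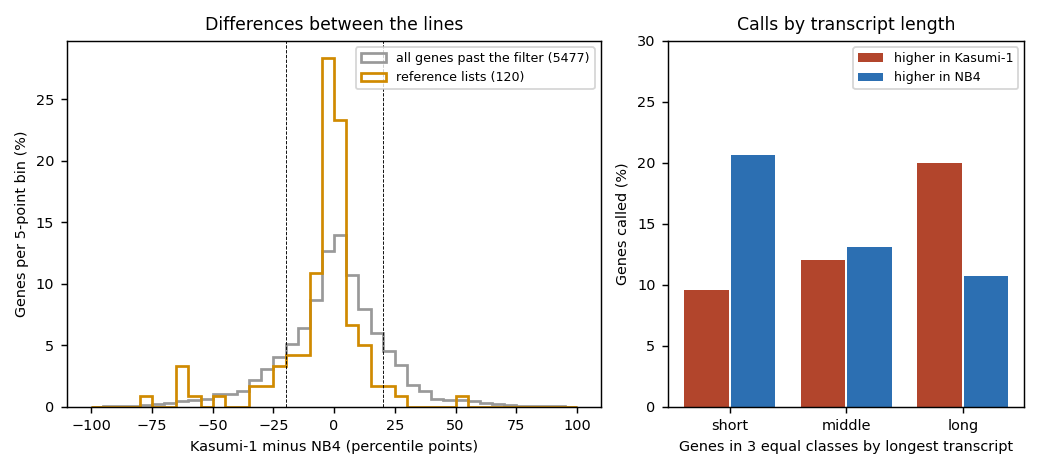
Left, share of genes per 5-point bin of the rank difference (Kasumi-1 minus NB4), for all 5477 genes past the filter and for the 120 in the reference lists; the reference genes pile up around 0, with 15 beyond -20. Right, share of genes called higher in each line by class of transcript length: 9.58% and 20.6% of the short class were higher in Kasumi-1 and NB4, and 20% and 10.7% of the long class.

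Of the fusion partners, RUNX1T1 was called higher in Kasumi-1 and RARA higher in NB4, while RUNX1 was not called. RUNX1T1 stood at 19.4, 19.2 and 17.9 FPKM in the Kasumi-1 controls and at 0 TPM in both NB4 controls, a difference of 82.0 points in rank. The NB4 table lists 2 of the 52 annotated transcripts of RUNX1T1, so the other forms have no value there, and the fusion and the normal gene cannot be told apart in these values. Other genes called higher in Kasumi-1 are also listed in part in NB4: KIT (2 of 4 transcripts), ERG (5 of 16), BAALC (2 of 9), ROBO1 (4 of 13), TFEC (1 of 9), HK1 (5 of 18) and APP (7 of 17). EGFL7 is listed in full (7 of 7), while ZEB2 (34 of 48) and CLN3 (49 of 64), called higher in NB4, are listed in part. What unlisted forms would add was not tested. RUNX1 itself (chr21:34787801-35049302, GRCh38.p14) was high in both lines, at a mean percentile of 93.8 ± 0.112 (SD, n = 3) in Kasumi-1 and 83.5 ± 1.91 (SD, n = 2) in NB4, and was not called. RARA (chr17:40309180-40357643) was listed at 3.1, 3.58 and 2.99 FPKM in Kasumi-1 and at 45.3 and 49.4 TPM in NB4. Its ranks did not overlap, at 46.8 to 49.7 against 81.3 and 83.5, and it was called higher in NB4. PML has a value in the NB4 table alone here, at 52.7 and 48.2 TPM.

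MPO, the myeloperoxidase of primary granules, was among the very highest genes of every library, at 6096, 5371 and 5818 FPKM in Kasumi-1 and 7983 and 7693 TPM in NB4. Its percentile was 100 after rounding in all 5 libraries. SPI1 (PU.1, the factor that drives myeloid fate), MYB (a factor of proliferating progenitors) and MYC were close in rank in both lines, with differences of 0.699, 0.125 and 0.351 points. MYB stood at a mean percentile of 97.3 in Kasumi-1 and 97.2 in NB4. As log2 shares of the shared genes, SPI1 and MYB differed by 0.28 and 0.08, while RUNX1 and MPO were higher in Kasumi-1 by 1.23 and 1.22 and MYC by 0.72, against the median of 0.28.

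Most stem and progenitor genes past the filter were called in Kasumi-1. Of 29 listed, 15 were in both tables and 9 passed the filter, of which 6 were higher in Kasumi-1 (KIT, ERG, CDK6, CD109, BAALC and ARHGAP22) and 2 in NB4 (DNMT3B and CPXM1). The 6 passed the filter through Kasumi-1 alone, with NB4 means of 25.8, 17.9, 43.8, 8.22, 23.5 and 30.2. Over all genes past the filter, 13.9% were called higher in Kasumi-1 and 14.8% in NB4. The median difference was 42.7 points over the 9 and 8.79 points over all 15, against 0.68 over all genes past the filter. Among the 15, 9 differences were positive and 6 negative. KIT (chr4:54657957-54740715), the receptor for stem cell factor, stood at 225, 322 and 185 FPKM in Kasumi-1 and at 1.05 and 0.743 TPM in NB4. All 3 Kasumi-1 libraries placed KIT at percentile 99.5 to 99.7, and both NB4 libraries placed it at 25.1 to 26.5. ERG, an ETS factor of stem cells, was at 17.2, 21.2 and 14.4 FPKM against 0.426 and 0.155 TPM. CDK6, a cyclin-dependent kinase of the G1 phase, was at 131, 124 and 108 FPKM against 7.11 and 5.59 TPM. The groups did not overlap in rank for either gene, with differences of 65.5 and 55.1 points.

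CD109, a membrane protein of progenitors, and BAALC, a marker of immature leukaemia, spread more among Kasumi-1 libraries, with SDs of 8.44 and 7.34 points around means of 60.2 and 66.2. Their NB4 means were 8.22 and 23.5. GATA2, a factor of stem and mast cells, overlapped between the lines: its percentiles were 76.1, 83.3 and 73.9 in Kasumi-1 and 79.4 and 83.2 in NB4. In the other direction, DNMT3B, a de novo DNA methyltransferase, was at 3.44, 4.43 and 3.98 FPKM in Kasumi-1 and 35.0 and 38.3 TPM in NB4, a difference of -26.4 points. CD34 was among the listed genes without a Kasumi-1 value here, and was at 0.067 and 0.0893 TPM in NB4.

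Genes known to be high in leukaemia with RUNX1-RUNX1T1 that passed the filter lay on the Kasumi-1 side. Of 17 listed, 11 were in both tables and 5 passed the filter: RUNX1T1, ROBO1, UBASH3B and BAALC were called higher in Kasumi-1, and JUP was not called. The 4 called genes passed the filter through Kasumi-1 alone, with NB4 means of 2.99, 8.45, 39.4 and 23.5. RUNX1T1 is the fusion partner itself, and BAALC is also counted in the progenitor list. Over all genes past the filter, 13.9% were called higher in Kasumi-1. The median difference was 52.6 points over the 5 and 5.78 over all 11, of which 7 were positive and 4 negative. UBASH3B, a phosphatase that restrains KIT and T cell receptor signalling, was at 32.8, 29 and 30.1 FPKM and at 4.57 and 4.44 TPM, with mean percentiles of 92.0 and 39.4. ROBO1, an axon guidance receptor, was at 8.29, 8.5 and 8.58 FPKM and at 0.0155 and 0.0447 TPM. JUP (plakoglobin, a catenin of cell junctions), which either fusion is known to raise, ranked at 97.9 and 92.1. PAX5, a B cell factor often switched on in this leukaemia, was under the filter, at a mean percentile of 40.6 in Kasumi-1 and 14.9 in NB4. POU4F1 has an NB4 value alone here, at 0.946 and 0.773 TPM.

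Genes known to be high in acute promyelocytic leukaemia lay on the NB4 side. Of 12 listed, 6 were in both tables and 5 passed the filter, of which 4 were called higher in NB4 and 0 in Kasumi-1. Over all genes past the filter, 14.8% were called higher in NB4. The median was -29.3 points over the 5 and -28.9 over all 6. STAB1, ANXA8 and CCNA1 passed the filter through NB4 alone, with Kasumi-1 means of 28.2, 10.6 and 27.0, while LGALS12 passed it in both lines (61.0 and 89.4). STAB1, a scavenger receptor, was at 0.36, 0.2 and 0.434 FPKM in Kasumi-1 and 56.3 and 62.5 TPM in NB4. ANXA8, an annexin that binds phospholipid and has near-identical copies which make its counting uncertain, was at 0.0335, 0 and 0.0122 FPKM and at 32.9 and 28.7 TPM. LGALS12, a galectin, and CCNA1, the germ cell form of cyclin A, differed by -28.4 and -29.3 points. HGF, hepatocyte growth factor, was not called, because Kasumi-1 control 2 stood apart: 2.9, 15.8 and 2.64 FPKM in Kasumi-1, against 25.7 and 24.8 TPM in NB4. Without that library the HGF difference was -24.2 points and met the rule.

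**Figure D3:**
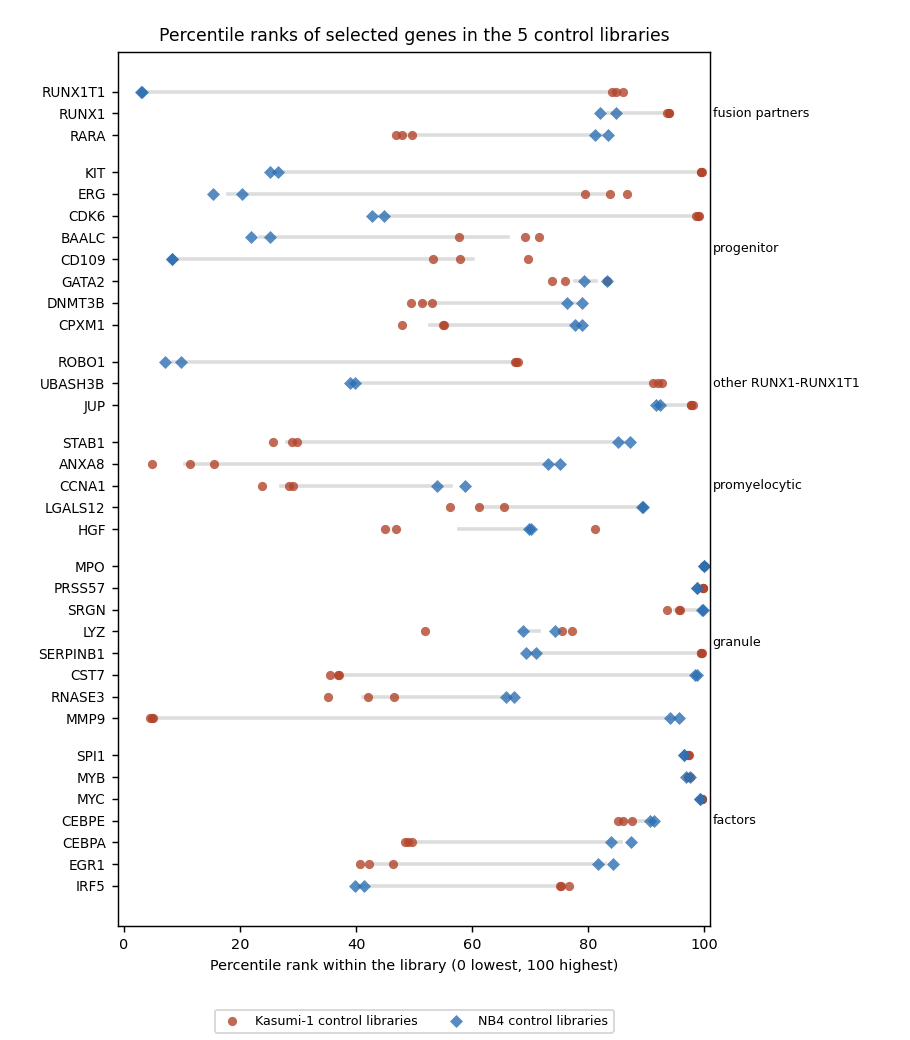
Percentile rank (x axis) of 34 selected genes in each of the 3 Kasumi-1 controls (circles) and 2 NB4 controls (diamonds), with a grey bar between the means. KIT, ERG and RUNX1T1 sit far to the right in Kasumi-1, STAB1, CST7 and MMP9 in NB4, and MPO, SPI1, MYB and MYC coincide at the right edge; the Kasumi-1 circle for HGF at 81.2 is control 2.

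Granule genes differed member by member. Of 9 primary granule genes past the filter, SERPINB1 was called higher in Kasumi-1 and CST7 and RNASE3 in NB4, with a median of -4.72 points. The share called, 33.3%, was near the 28.7% of all genes past the filter. As log2 shares, 3 were higher in Kasumi-1 and 5 in NB4, against 29.34% and 20.65% of all genes past the filter. SERPINB1, the inhibitor of neutrophil elastase, was at 233, 226 and 221 FPKM and at 27.0 and 23.7 TPM, percentiles of 99.6 against 69.4 and 71.0. CST7 (cystatin F, an inhibitor of granule proteases) was at 1.13, 0.922 and 1.24 FPKM and at 349 and 325 TPM. RNASE3, the eosinophil cationic protein, was at 2.0, 0.873 and 2.94 FPKM and at 21.2 TPM in both NB4 controls. PRSS57, a serine protease of azurophil granules, and SRGN, the proteoglycan core that holds granule proteins, were near the top of both lines, at mean percentiles of 99.9 and 98.8 and of 95 and 99.8. The serine proteases ELANE, PRTN3, CTSG and AZU1 have NB4 values alone here: ELANE was at 1.0 and 1.59 TPM, while CTSG was at 335 and 396, PRTN3 at 141 and 257 and AZU1 at 188 and 171.

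Late granule and neutrophil genes were low in both lines with 1 exception. Of 8 in both tables, 7 were under the filter, among them CAMP and CEACAM8, at 0 in every Kasumi-1 control, and S100A9, at mean percentiles of 38.2 and 31.2. The exception was MMP9 (gelatinase B of tertiary granules; chr20:46008908-46016561), at 0 FPKM in all 3 Kasumi-1 controls and at 119 and 147 TPM in NB4. Its difference of -90.2 points was the largest on the NB4 side among the genes the naming rule covers.

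Among haematopoietic transcription factors, 21 of 25 in both tables passed the filter, with a median of 1.08 points. Of these, 3 were called in each direction (28.6% called, against 28.7% of all genes past the filter). As log2 shares, 10 were higher in Kasumi-1 and 3 in NB4, against 29.34% and 20.65% of all genes past the filter. CEBPA, the factor that commits progenitors to granulocytes, was at 3.19, 3.56 and 3.49 FPKM in Kasumi-1 and 52.1 and 63.4 TPM in NB4, percentiles of 48.4 to 49.7 against 84.0 and 87.3. CEBPE, which acts later in granulocytes, was high in both, at 86.2 and 91.1. EGR1, an immediate early factor, and ZEB2, a zinc finger repressor, were also called higher in NB4, by -39.9 and -22.0 points; without NB4 control 1 the ZEB2 difference was -19.0 points, and with the highest NB4 transcript of each gene taken in place of the sum it was -14.4, both short of the threshold. On the Kasumi-1 side were ERG, IRF5 (35.2 points), an interferon regulatory factor, and TFEC (47.8 points), a factor related to MITF. The Kasumi-1 libraries of TFEC spread over percentiles of 54.1, 43.5 and 60.3, and without control 3 its mean rank lay under 50 in both lines, so that it was not called. LMO2, ETV6, CBFB and IKZF1 were not called.

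Of the HOX and TALE factors, which set positional and stem cell programmes, 4 of 10 in both tables passed the filter. Of these 4, 75% were called, against 28.7% of all genes past the filter. HOXA5 and PBX2 were called higher in Kasumi-1, by 37.6 and 37.8 points, and HOXA10 higher in NB4, by -31.8 points. HOXA5 passed the filter through Kasumi-1 alone (NB4 mean 24.5) and HOXA10 through NB4 alone (Kasumi-1 mean 49.5). PBX2 passed it in both lines. HOXA5 was at 6.64, 6.7 and 6.7 FPKM and at 1.09 and 0.48 TPM, and its neighbour in the same cluster, HOXA10, at 2.7, 4.44 and 3.59 FPKM and 47.3 and 41.2 TPM. HOXA9 was under the filter in both lines, at mean percentiles of 30.8 and 31.8.

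Of the cytokine and growth factor receptors, 36 were in both tables and 19 passed the filter, with 3 called in each direction (31.6%, near the 28.7% of all genes past the filter), a median of 4.75 points (-0.536 over all 36), and with 6 against 4 as log2 shares. Beside KIT, TGFBR2 (the ligand-binding TGF-beta receptor; 34.2, 36.6 and 30.01 FPKM, 11.7 and 9.84 TPM) and IL6ST (gp130, the signalling chain shared by IL-6 family receptors) were higher in Kasumi-1. The receptors higher in NB4 were IL6R, the chain that binds IL-6 itself, IL17RA and CSF2RA, the GM-CSF receptor alpha chain, by -32.9, -23.4 and -21.3 points. CSF2RA was not called with the highest NB4 transcript (-9.31 points) or with protein-coding transcripts alone summed (-16.9). The partner chains of the IL-6 receptor thus ranked in opposite directions: IL6ST was at percentiles of 54.8 to 55.6 and 29.4 to 30.2, and IL6R at 39.7 to 40.3 and 70.9 to 74.9. FLT3, a progenitor receptor, was not called, at 3.3, 7.16 and 3.19 FPKM and 12.9 and 10.3 TPM, with Kasumi-1 control 2 again the highest of its line.

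Surface antigens of myeloid cells gave 4 calls in each direction among 18 past the filter (44.4%, against 28.7% of all genes past the filter), and 7 against 6 as log2 shares. CLEC5A (a DAP12-coupled lectin, 37.4, 35.9 and 42.1 FPKM against 2.71 TPM in both NB4 controls), CD93 and CD244 were among those higher in Kasumi-1. CD68 (a lysosomal glycoprotein of macrophages), ITGAM (CD11b, an integrin of maturing myeloid cells), SELPLG (the selectin ligand PSGL-1) and ICAM2 were higher in NB4. CLEC5A, CD93 and CD244 passed the filter through Kasumi-1 alone, with NB4 means of 34.4, 45.4 and 38.8. CD68, ITGAM, SELPLG and ICAM2 passed it through NB4 alone, with Kasumi-1 means of 9.07, 21.4, 35.4 and 34.1. ITGAM was at 0.137, 0.111 and 0.0641 FPKM and at 12.7 and 15.6 TPM, percentiles of 18.7 to 23.4 against 55.3 and 60.9. With the highest NB4 transcript CD244 (18.3 points), ICAM2 (-18.6) and ITGAM (-21.1) were not called, nor with coding transcripts were ICAM2 (-19.0) and ITGAM (-27.0). In the JOA libraries CD244 differed by 15.9 points and was not called. CD44 and ITGA4, adhesion receptors of most blood cells, were within 1 point of each other between the lines, at 94.7 and 95 and at 94.3 and 94.7. CD33, the antigen of early myeloid cells, has values in NB4 alone here, at 58.4 and 49.8 TPM.

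The phagocyte oxidase, which makes the respiratory burst, differed by subunit. CYBB, its membrane catalytic subunit gp91phox, was at 0.475, 0.465 and 0.328 FPKM in Kasumi-1 and at 43.2 and 43.4 TPM in NB4, a difference of -50.9 points. The cytosolic subunit NCF4 was called higher in Kasumi-1, by 35.1 points, at 29.3, 32.6 and 29.5 FPKM and 11.7 and 15.1 TPM. RAC2, the small GTPase of the complex, ranked at 96.6 and 97.4. Among Fc receptors and their kinases, FCER1G, the shared gamma chain, was the single call of 7 past the filter, at -31.0 points on the NB4 side. As log2 shares, 3 were higher in NB4, against 20.65% of all genes past the filter. By rank, 14.3% were called, against 28.7% of all genes past the filter. The list gave 3 calls in NB4 without Kasumi-1 control 1 and 2 without Kasumi-1 control 2, Kasumi-1 control 3 or NB4 control 1. FCGR2A and SYK were not called, at -19.8 and -18.8 points.

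Antigen presentation genes were mostly close. HLA-E, a non-classical class I gene, gave the largest difference of all named genes, 94.7 points, at 76.2, 81.7 and 63.7 FPKM in Kasumi-1 and 0 TPM in NB4. It belongs to a family of similar genes that lie on alternative chromosome 6 sequences, so its NB4 value is uncertain. HLA-E lies at chr6:30489509-30494194, and TAPBP at chr6:33299694-33314078. PBX2 and RXRB, also called higher in Kasumi-1, lie on the same chromosome. Whether alternative sequences affect the NB4 values of these 3 genes was not tested. TAPBP, the tapasin that loads peptides onto class I, was also higher in Kasumi-1 (23.5 points). With the highest NB4 transcript it differed by 19.0 points and was not called. HLA-B and CALR were not called. As log2 shares, 4 of the class I list were higher in Kasumi-1 and 1 in NB4, against 29.34% and 20.65% of all genes. Of the class II list, 8 of 9 in both tables passed the filter and 25% of these were called, against 28.7% of all genes past the filter. NFYA was higher in Kasumi-1 (26.3 points) and NFYC higher in NB4 (-26.9 points). Both are subunits of the NF-Y complex that binds class II promoters. RFX5, RFXANK and RFXAP, the other class II factors, differed by -1.57, -7.33 and 0.687 points. The class II genes HLA-DRA and CD74 each have a value in 1 table here: HLA-DRA at 21.2, 14.2 and 19.5 FPKM in Kasumi-1 and CD74 at 2.25 and 1.04 TPM in NB4.

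Coagulation genes, of interest because promyelocytic leukaemia is known for bleeding and clotting, gave 3 calls among 4 past the filter (75%, against 28.7% of all genes past the filter). Of the 16 listed, 10 were absent from 1 table or both. F3 (tissue factor, which starts coagulation) was at 0.423, 0.119 and 0.274 FPKM in Kasumi-1 and 23.4 and 32.1 TPM in NB4, a difference of -45.3 points. F2R, the thrombin receptor, and PROCR, the protein C receptor, were higher in Kasumi-1, by 60.4 and 24.3 points. F3 passed the filter through NB4 alone (Kasumi-1 mean 26.6), and F2R and PROCR through Kasumi-1 alone (NB4 means 16.2 and 32.9). PLAU, urokinase, was not called, at 61.6 and 51.8.

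Of the retinoid list, 7 of 16 in both tables passed the filter, with 2 called in each direction (57.1%, against 28.7% of all genes past the filter). RARA and its partner RXRA were higher in NB4, RXRA at 3.74, 3.65 and 3.37 FPKM and 61.7 and 60.5 TPM (-36.9 points). When only protein-coding transcripts of NB4 were summed, the RXRA difference was -15.0 points and missed the threshold. The paralogue RXRB was higher in Kasumi-1, at 13.1, 13 and 14.9 FPKM and 4.1 and 3.22 TPM (41.3 points), as was DHRS3, a retinal reductase (30.3 points). RARA and RXRA passed the filter through NB4 alone, with Kasumi-1 means of 48.2 and 49.8. RXRB and DHRS3 passed it through Kasumi-1 alone, with NB4 means of 37.2 and 28.6. RXRB lies on chromosome 6 (chr6:33193588-33200853), as HLA-E does, and whether its NB4 value is uncertain for the same reason was not tested. The corepressor NCOR1, which binds both fusion proteins, differed by -13.6 points and was not called. The retinoic acid targets CYP26A1 and TGM2 were under the filter in both lines.

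Feedback genes of the ERK pathway, which the kinase cascade switches on and which damp it in turn, were called mostly in NB4. Of 10 past the filter, 7 were higher in NB4 and DUSP4 was higher in Kasumi-1 (80% called, against 14.8% of all genes past the filter called higher in NB4 and 28.7% called in all), with a median of -22.7 points (-21.0 over all 12 in both tables). The ETS factors ETV4 and ETV5, the Sprouty inhibitors SPRY1 and SPRY4, SPRED2, EGR1 and the cyclin CCND1 were those on the NB4 side. ETV4, SPRY1, SPRY4, EGR1 and CCND1 passed the filter through NB4 alone, with Kasumi-1 means of 33.2, 46.4, 30.7, 43.1 and 32.1. SPRED2 and ETV5 passed it in both lines, and DUSP4 through Kasumi-1 alone (NB4 mean 35.8). ETV4 was at 0.736, 0.935 and 0.486 FPKM in Kasumi-1 and at 52.1 and 49.3 TPM in NB4, percentiles of 30.7 to 35.6 against 83.4 and 84.0. SPRY4 was at 0.531, 0.52 and 0.377 FPKM and at 13 and 11.6 TPM. DUSP4 was not called with the highest NB4 transcript (16.8 points) or with coding transcripts (19.5). SPRY2 was not called, at 72.2 and 71.1. In the JOA libraries of both lines, compared in the same way, 3 of the 7 were called higher in NB4 (ETV4, SPRY1 and SPRY4), and the differences of EGR1, CCND1, SPRED2 and ETV5 were -19.0, -18.8, -17.2 and -14.5 points. As log2 shares, 5 targets of p53 were higher in Kasumi-1 and 2 in NB4, against 29.34% and 20.65% of all genes past the filter. By rank, p53 targets gave 2 calls of 9 past the filter, 22.2% against 28.7% of all genes past the filter. Without Kasumi-1 control 2 there were 3 calls in Kasumi-1 in place of 1, and without Kasumi-1 control 1, Kasumi-1 control 3 or NB4 control 2 there were 2. Of the members called with all libraries, TP53INP1 was higher in Kasumi-1 (45.8 points), and BBC3 (PUMA, a killer BH3 protein) was higher in NB4 (-35.4 points).

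**Figure D4:**
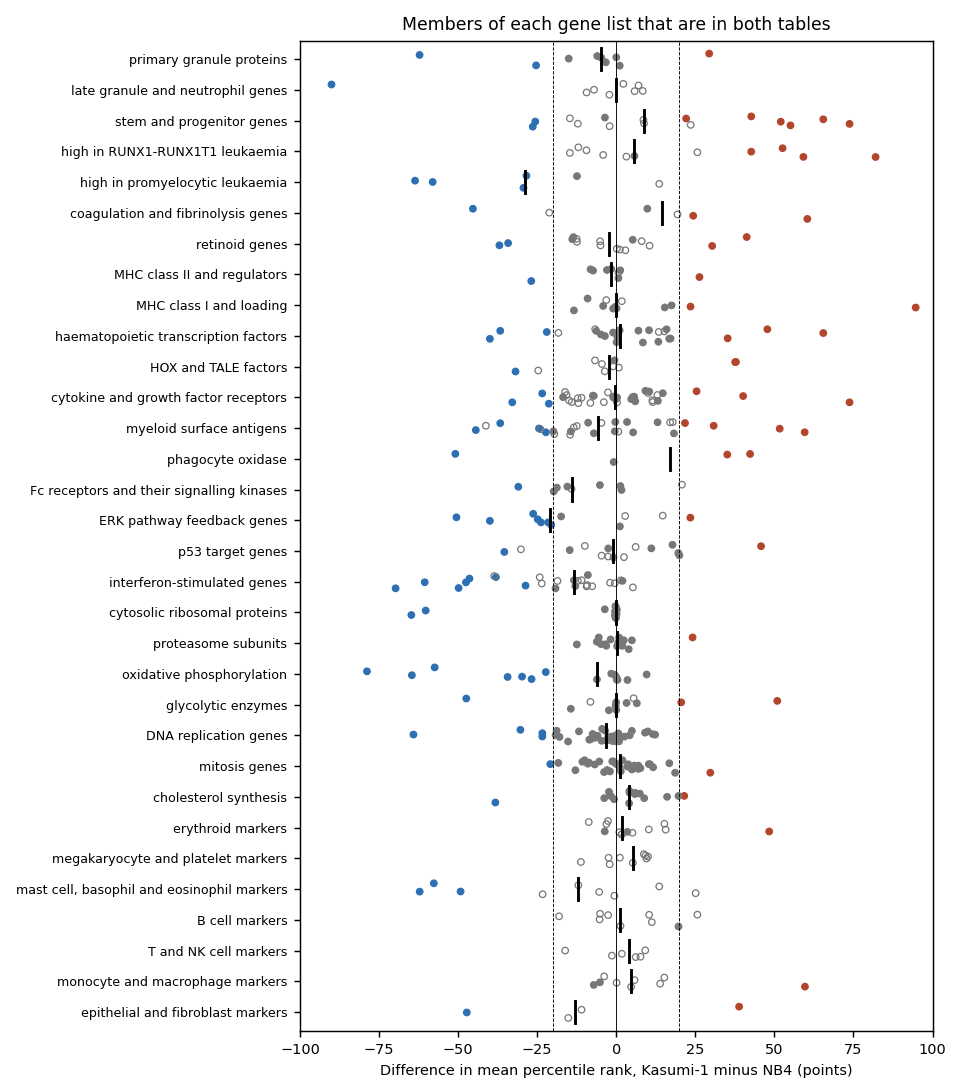
Difference in mean percentile rank (x axis, Kasumi-1 minus NB4) of every member found in both tables, by list; filled points passed the filter, open points did not, red and blue points were called higher in Kasumi-1 and NB4, black bars are medians over all members shown, dashed lines are the 20-point threshold. The promyelocytic, ERK feedback and interferon lists have medians of -28.9, -21.0 and -13.4 points, while most reference lists centre near 0.

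Interferon-stimulated genes ranked higher in NB4. These genes are switched on when interferon signals from its receptor to a promoter element, and they include antiviral enzymes and sensors. Of 41 listed, 25 were in both tables and 12 passed the filter, of which 7 were called higher in NB4 (58.3%, against 14.8% of all genes past the filter) and 0 in Kasumi-1: OAS1, BST2, XAF1, TRIM22, ISG15, IFI6 and IFIT1. OAS1, BST2, XAF1, TRIM22 and ISG15 passed the filter through NB4 alone, with Kasumi-1 means of 6.95, 36.3, 24.9, 18.3 and 42.5. The median was -33.4 points over the 12 and -13.4 over all 25. Without any filter on rank, 20 of the 25 had both NB4 controls above all 3 Kasumi-1 controls and 0 had the reverse; of all 9345 shared genes, 38.4% had NB4 above in this way.

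The promoters of 4 of these genes are shown because they carry the response element, searched as GAAA, any 2 bases and GAAA again, on both strands. The 250 bases before the start are given, 5′ to 3′ along the gene's strand, from RefSeq on GRCh38.p14, with matches in capitals. The positions are chr1:1013247-1013496 (+) for ISG15, chr19:17405631-17405880 (-) for BST2, chr10:89392373-89392622 (+) for IFIT1 and chr1:27672193-27672442 (-) for IFI6.
ISG15: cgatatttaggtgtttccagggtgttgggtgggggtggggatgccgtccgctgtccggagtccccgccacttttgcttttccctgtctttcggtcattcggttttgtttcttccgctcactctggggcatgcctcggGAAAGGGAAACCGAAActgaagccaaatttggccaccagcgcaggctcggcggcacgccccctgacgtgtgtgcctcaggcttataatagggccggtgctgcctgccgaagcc
BST2: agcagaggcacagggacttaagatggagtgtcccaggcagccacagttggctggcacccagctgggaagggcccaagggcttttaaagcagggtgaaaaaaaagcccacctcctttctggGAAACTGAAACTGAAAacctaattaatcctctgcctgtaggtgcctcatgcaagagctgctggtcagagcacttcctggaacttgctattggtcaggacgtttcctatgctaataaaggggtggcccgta
IFIT1: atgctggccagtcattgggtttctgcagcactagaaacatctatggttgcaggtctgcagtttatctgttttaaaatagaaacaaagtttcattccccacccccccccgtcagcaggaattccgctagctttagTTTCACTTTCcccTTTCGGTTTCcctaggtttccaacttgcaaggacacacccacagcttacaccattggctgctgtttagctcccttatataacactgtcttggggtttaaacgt
IFI6: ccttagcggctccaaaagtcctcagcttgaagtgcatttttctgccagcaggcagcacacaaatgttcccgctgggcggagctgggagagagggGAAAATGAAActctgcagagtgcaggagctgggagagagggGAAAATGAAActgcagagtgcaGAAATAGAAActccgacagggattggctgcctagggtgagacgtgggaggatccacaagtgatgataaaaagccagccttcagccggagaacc

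In ISG15 and BST2, 2 forward matches overlap, the first starting 113 and 130 bases before the start of the gene. IFIT1 holds 2 matches in reverse orientation, 116 and 103 bases before the start, and IFI6 holds 3 forward matches. Promoters of 300 bases (250 before to 50 after the start) were found for 19 of the 25 interferon-stimulated genes in both tables, and 12 of these (63.2%) hold the element, as do 4 of the 6 called higher in NB4 that have one. OAS1 and XAF1 hold no match in this window. Of the 4543 promoters found for genes past the filter, from which the calls come, 2.53% hold it, as do 2.95% of those of genes called higher in NB4, 2.65% of those called higher in Kasumi-1 and 3.65% of all 27305 promoters. The RUNX motif TGTGGT, on both strands, was in 8.58% of the promoters of genes past the filter (13.1% of all promoters), 7.28% of those of genes called higher in Kasumi-1, 8.39% of those called higher in NB4 and 0 of the 7 found for progenitor and RUNX1-RUNX1T1 list genes called higher in Kasumi-1.

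OAS1, an enzyme that activates RNase L, was listed at 0, 0.0116 and 0 FPKM in Kasumi-1 and at 51.1 and 24.1 TPM in NB4. BST2 (tetherin, which holds virus particles at the cell surface) was at 1.09, 1.23 and 0.919 FPKM and at 216 and 160 TPM. ISG15, a ubiquitin-like modifier, was at 2.41, 2.0 and 1.93 FPKM and at 92.2 and 56.8 TPM. No library of one line reached the range of the other for these genes. NB4 control 1 ranked above NB4 control 2 for 23 of the 25 genes in both tables, with a median gap of 6.08 points, and XAF1 was at 46.9 and 21.2 TPM in these libraries. HERC5, the ligase for ISG15, differed by 1.97 points and was not called. SLFN11 and SLFN13, Schlafen genes that interferon can raise and that were not in the list, were among the 15 largest differences on the NB4 side: SLFN11 was at 0.0277, 0 and 0 FPKM and at 100.2 and 88.1 TPM.

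**Figure D5:**
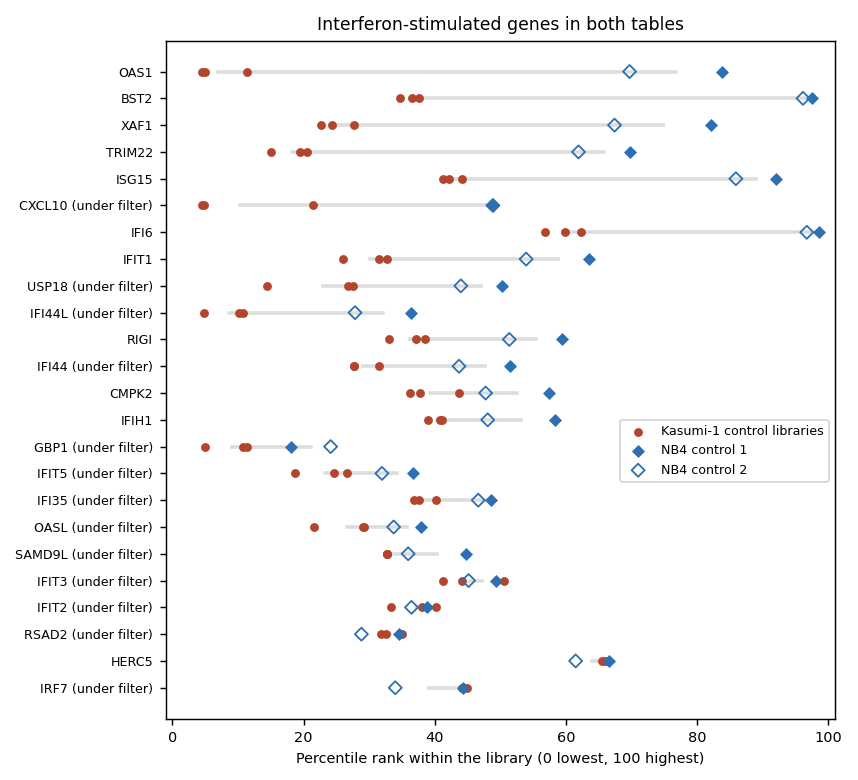
Percentile rank (x axis) of 24 interferon-stimulated genes in both tables, ordered by the difference, in the 3 Kasumi-1 controls (circles), NB4 control 1 (filled diamonds) and NB4 control 2 (open diamonds), with a grey bar between the means. For 19 genes both diamonds lie right of all circles, and the filled diamond lies right of the open one for 22.

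Genes of mitosis, replication and cholesterol synthesis were mostly close in rank between the lines. Glycolytic genes were called about as often as all genes past the filter, and oxidative phosphorylation genes more often. Called were 6.06% of mitosis, 11.8% of replication, 30% of glycolytic and 13.3% of cholesterol genes past the filter, against 28.7% of all genes past it. As log2 shares, 7 mitosis genes were higher in Kasumi-1 and 3 in NB4, and 4 and 10 replication genes. Over all genes past the filter, 29.34% and 20.65% were higher on that scale. Of 33 mitosis genes, ASPM was called higher in Kasumi-1 (29.7 points) and AURKB higher in NB4 (-20.8 points), and MKI67, TOP2A and CCNB1 were not called. AURKB was not called with the highest NB4 transcript (-15.9 points) or with coding transcripts (-19.3). Without NB4 control 2, 2 mitosis genes were called in Kasumi-1, and without Kasumi-1 control 2, 2 in NB4. Of 34 replication genes, RRM2, POLE2, POLA2 and RPA3 were higher in NB4, RRM2 at 0.914, 1.09 and 0.606 FPKM and 317 and 384 TPM, a gene that dividing cells need. POLA2 was not called with the highest NB4 transcript (-7.62 points) or with coding transcripts (-5.74), POLE2 was not called with coding transcripts (-17.3), and RPA3 was not called in the JOA libraries (-19.2). MCM2, MCM3, MCM7 and PCNA differed by at most 1.13 points in size. The glycolytic HK1, a hexokinase, was at 31.3, 30.6 and 30.6 FPKM and 5.11 and 5.27 TPM (50.9 points), while HK2, LDHB and ENO1 were not called. Oxidative phosphorylation gave 7 calls of 15, all in NB4, from SDHA (-78.8 points) to SDHD (-22.3 points). That is 46.7%, against 14.8% of all genes past the filter called higher in NB4. SDHA was named above as near 0 in Kasumi-1, where a row may not carry a gene's main transcript, and the part of this in the 7 calls was not tested. Of 15 cholesterol synthesis genes, PMVK was called higher in Kasumi-1 (21.5 points) and CYP51A1 in NB4 (-38.2 points), with a median of 4.19 points (4 and 1 as log2 shares). Without NB4 control 1 the PMVK difference was 19.2 points, and that of SLC16A1, a lactate transporter called higher in Kasumi-1 (20.6 points), was 17.8 points. Neither gene was called with the highest NB4 transcript (9.3 and 14.4 points) or with coding transcripts (15.6 and 17.5). Without Kasumi-1 control 1 or NB4 control 2, 2 cholesterol genes were called in Kasumi-1.

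Markers of other cell types included some high members, most of all in the red cell list. Its 13 members in both tables summed to 140 to 167 FPKM in Kasumi-1 and 270 to 285 TPM in NB4. Most of that was GYPC (glycophorin C, which other blood cells also carry), at 128, 116 and 103.8 FPKM and 138 TPM in both NB4 controls, and CA2 (carbonic anhydrase 2), at 22.8, 41.9 and 27.8 FPKM and 140 and 125 TPM. Neither was called. None of 9 megakaryocyte markers and none of 6 T and NK cell markers in both tables passed the filter. Of the mast cell, basophil and eosinophil list, HDC (which makes histamine), EPX (eosinophil peroxidase) and MS4A3 (a marker of granulocyte and monocyte precursors) were the 3 past the filter of 9 in both tables, and all 3 were higher in NB4. They passed the filter through NB4 alone, and 14.8% of all genes past the filter were called higher in NB4. HDC was at 0.0419, 0.0433 and 0.0153 FPKM and at 42.8 and 30.5 TPM, and EPX at 0.0612, 0.106 and 0.201 FPKM and at 56.3 and 29.7 TPM. The summed level of the 9 was 3.94 to 4.69 FPKM in Kasumi-1 and 223 to 275 TPM in NB4, most of it MS4A3, with IL5RA at 0 in all Kasumi-1 controls and HPGDS at 0 in both NB4 controls. In Kasumi-1, VSIG4 (a macrophage complement receptor, 19.5, 12.4 and 21.7 FPKM), EPCAM (an adhesion molecule of epithelia, 44.4, 35.5 and 43.0 FPKM) and HBQ1 (a theta globin, 3.92, 4.48 and 3.5 FPKM; not called with NB4 coding transcripts) were called higher, and the smooth muscle actin ACTA2 was higher in NB4 (38.7 and 22.1 TPM). The globin gene HBD and the T cell gene CD8B were at 0 in all 5 libraries, and HBA1 and ALAS2 were under the filter in both lines.

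Beyond the lists, the largest differences were named by rule, 15 in each direction. On the Kasumi-1 side, after HLA-E and MRPL45, these included TMIGD2, an immune coreceptor (50.6, 37.2 and 40.7 FPKM against 0 TPM in NB4), FAM171A1, PODXL2, the phosphatase DUSP23, DDAH1, which breaks down an inhibitor of nitric oxide synthesis, and EGFL7, a secreted factor of vessels and stem cells. EGFL7 (chr9:136658856-136672678) was at 122, 123 and 115 FPKM and at 0.733 and 0.308 TPM. APP, the amyloid precursor protein, was at 155, 163 and 152 FPKM and at 0.748 and 0.806 TPM, and MFNG, a Fringe glycosyltransferase that modifies Notch receptors, at 61.9, 65.6 and 58.4 FPKM and 0.661 and 0.514 TPM. In both, all Kasumi-1 libraries lay above percentile 95 and both NB4 libraries between 22.5 and 25.8.

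On the NB4 side, after MMP9 and SLFN11, these included XAGE1A, a cancer-testis antigen with near copies (0, 0 and 0.0565 FPKM against 149 and 171 TPM), the lysosomal genes MAN2B1, ATP6V0C and CLN3, the kinesin KIFC3 and HSH2D, an adaptor of blood cells. ATP6V0C, a subunit of the proton pump that every cell uses, was listed at 0.0381 to 0.0738 FPKM in Kasumi-1 and at 263 and 303 TPM in NB4. ZNG1C and CDK11A have near-identical copies, and their values are uncertain for that reason. HSH2D was at 0.0976, 0.135 and 0 FPKM and at 134 and 132 TPM. Among all calls, 14 genes higher in Kasumi-1 were at 0 in both NB4 controls, and 13 higher in NB4 were at 0 in all 3 Kasumi-1 controls.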

How the data were processed

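Libraries were made with a stranded TruSeq mRNA kit, per the labels' protocols. Tools listed in the submitters' processing notes are HISAT2, HTSeq, Cufflinks and Trimmomatic, on hg38, without versions or roles. The authors deposited FPKM values for Kasumi-1 in 29053 rows, each named by a nucleotide record. A total of 10906 rows (37.5%, with 44.3 to 47.2% of the FPKM) were matched to 10802 symbols through RefSeq, and rows of a symbol were summed. The NB4 table is named for FPKM, but the deposited columns sum to just under 1000000 and were taken as TPM; 93.9% of its 121005 transcripts matched GENCODE 29 and were summed to 21961 genes. Columns of the Kasumi-1 controls sum to 266344 to 277629 FPKM, with relative depths of 91.4 to 100%, and TPM keeps no depth. Percentile ranks over the 9345 shared symbols (ties averaged) were computed with Python 3.11.15 and pandas 2.3.3. The call rule was also run on simulated data in which both lines were drawn from the Kasumi-1 control values. That simulation holds no mismatch of records or transcripts between the tables, so it cannot test the calls made across them. Nothing in the labels says that replicates are separate cultures.

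The members and the 32 gene lists were chosen with earlier results of these data known. Genes were named by rule: a fixed set, the 15 largest differences per direction with every library of the higher line at percentile 75 or more, and up to 5 called members per list and direction. Uncalled list members named for contrast, and SLFN11 and SLFN13 as interferon-related, were picked after their values were seen, as were the response element searched and the promoters shown. Promoter motifs for PU.1, CEBP and others were searched too; MMP9, CST7, MPO, HLA-DRA and HLA-E have no entry in the promoter table used. Some listed genes are not reported here.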

Additional observations from a re-analysis of the deposited data

How the results depend on the processing

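Counts are given as genes higher in Kasumi-1 and then in NB4, against 760 and 811. With levels as log2 shares the counts were 1607 and 1131 at a pseudocount of 1 and 1624 and 1140 at 0.1, and all 760 and 811 calls were kept. A threshold of 10 points gave 1522 and 1436, and of 30 points 326 and 423. Over the 1701 genes past the filter with exactly 1 curated coding record in RefSeq, an alternative added after seeing the data and built on fewer genes, the counts were 189 and 223. Of the main calls, 274 and 188 were among genes with 1 such record, and 184 and 188 were kept. No member of the stem and progenitor, RUNX1-RUNX1T1 or retinoid lists passed the filter there. From the promyelocytic, ERK feedback and interferon lists 1, 3 and 7 did, with 1, 3 and 5 called higher in NB4. Leaving out each library in turn gave 749 to 768 and 800 to 823. The other alternatives (protein-coding genes, genes above 0 in every library, NB4 by highest or coding transcripts, Kasumi-1 by highest row, same record version, no filter, JOA libraries) stayed within 1.5 times of both counts, from 620 to 964 and from 693 to 1017. The NB4 highest transcript kept 514 of the 760 calls and 562 of the 811. The JOA libraries kept 676 and 720. No call turned its direction under any of these, and of 125 named genes 12 missed the rule with the highest NB4 transcript and 5 with the JOA libraries; the cause was not tested. No paired analysis was possible because the comparison comes from no test and the replicate numbers of separate lines pair nothing. Depth is unknown for NB4, so genes at 0 there have no floor. A gene with no row in one table has no rank, and 1457 Kasumi-1 symbols were not shared.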

Other observations

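A few genes set Kasumi-1 control 2 apart from the other two controls of its line. Of the 5477 genes past the filter, 14 (0.256%) spanned 20 or more points within Kasumi-1, and control 2 was the library farthest from the median in 13 of them. These genes were picked for that spread, after their values were seen. HGF stood at percentiles of 46.8, 81.2 and 44.9, and IGLL1, the surrogate light chain of B cell precursors, at 46.7, 72.6 and 49.2. In the other direction, LYZ, the lysozyme of maturing myeloid cells, stood at 75.5, 51.9 and 77.3, and SYK, a kinase of immune receptors, at 64.0, 43.9 and 63.2. The natriuretic peptide clearance receptor NPR3 and the matrix protein EDIL3 were high in control 2 (84.0 and 77.6), and the metalloprotease ADAM12 and the actin regulator WIPF3 were low (46.0 and 33.4). Of the same 5477 genes, 2 differed by 20 or more points between the NB4 controls. Whether control 2 was handled differently was not tested.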
